A study of Mus musculus with 14 samples.

Results

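The 10 genes that mark the epithelial and the mesenchymal state of a cell considered here were chosen by symbol, namely Cdh1, Epcam, Cdh2, Vim, Fn1, Snai1, Snai2, Twist1, Zeb1 and Zeb2, and they were followed through 14 RNA sequencing libraries of 4T1 spheroids. Of the 10 genes, 9 had a row among the 19525 genes of the count table, and Cdh2 was not analysed here. They were picked by name, with earlier results of these data known. 4T1 is a mouse mammary carcinoma line used as a model of triple-negative breast cancer, and the study asked how the amino acid aspartate, sensed by the NMDA receptor, acts on translation through eIF5A. The spheroids grew for 5 days in a lung-like medium, and RNA came from their cytosolic lysate, the input of polysome profiling, so that transcripts held in the nucleus were not sampled.

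All cells carried a pLKO lentiviral hairpin vector and had been selected with puromycin as polyclonal lines. NoASP shSCR (n = 3, replicates 2 to 4) carried a non-targeting hairpin and received no added aspartate. ASP shSCR (n = 4) carried the same hairpin and received 700 µM aspartate. ASP shGRIN2D (n = 3) and ASP shDHPS (n = 4) received the same aspartate and carried a hairpin against Grin2d, which encodes an NMDA receptor subunit, or against Dhps, which encodes the enzyme of the first step of eIF5A hypusination. Neither knockdown was analysed here without added aspartate, and a hairpin and its line cannot be told apart.

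An epithelial cell is joined to its neighbours by E-cadherin, the product of Cdh1, and carries the adhesion molecule EpCAM on its surface. A mesenchymal cell instead has an intermediate filament network of vimentin (Vim), deposits fibronectin (Fn1) and may use N-cadherin (Cdh2). In the epithelial-mesenchymal transition, a programme of development and wound healing that carcinoma cells can use in part or in full, the transcription factors Snail (Snai1), Slug (Snai2), Twist1, Zeb1 and Zeb2 lower the first group and raise the second. Snail, Slug and the Zeb proteins bind the E-box CAGGTG, which reads CACCTG on the other strand.

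The promoters of Epcam and Vim are shown because these 2 members were the ones that passed the test in a comparison of a knockdown with its control. The windows are the 250 bases before the annotated start in RefSeq on GRCm38.p6, which is an earlier build than the GRCm39 the authors mapped to. The Epcam window is chr17:87635729-87635978 and the Vim window is chr2:13574061-13574310, both on the plus strand, and capitals mark each CAGGTG or CACCTG.
Epcam: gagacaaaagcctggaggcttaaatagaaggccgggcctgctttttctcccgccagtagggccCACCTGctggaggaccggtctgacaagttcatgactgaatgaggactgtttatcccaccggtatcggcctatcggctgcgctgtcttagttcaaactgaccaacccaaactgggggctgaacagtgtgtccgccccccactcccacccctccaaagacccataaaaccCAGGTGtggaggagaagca
Vim: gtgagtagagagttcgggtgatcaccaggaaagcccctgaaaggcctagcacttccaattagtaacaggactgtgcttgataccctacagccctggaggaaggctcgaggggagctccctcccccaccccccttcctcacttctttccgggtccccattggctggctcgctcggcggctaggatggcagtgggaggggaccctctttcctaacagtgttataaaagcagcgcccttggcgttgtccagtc
The Epcam window held the E-box at 2 places, which began 187 and 19 bases before the start, and the Vim window held none. Of the 5 members whose windows were examined here, Epcam and Snai1 held it, the latter at 1 place, and Vim, Twist1 and Zeb2 did not. Among all 32817 windows of this length, 17.2% held it. These 5 members had 8 windows between them, since Zeb2 had several, so the count of members is not a share of windows. A match of letters is a description and shows neither binding nor regulation.

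Libraries summed to between 12731123 and 23231378 counts. Values are given in CPM, a gene's share of its library's counts, scaled with TMM factors of 0.984 to 1.02, and differences come from edgeR's quasi-likelihood test on all 14 libraries. A gene was called where the Benjamini-Hochberg adjusted p over all 19525 genes was below 0.05, and errors are SD for levels and standard errors (SE) for log2 fold changes. On the principal components of genes that averaged 5 CPM or more, replicate 2 of both shSCR groups and replicate 1 of ASP shDHPS lay farthest out on the first axis (32.3% of the variance). Dhps was at 6.93 ± 1.74 CPM (n = 4) in ASP shDHPS and at 19.4 ± 2.28 CPM (n = 4) in ASP shSCR (edgeR adjusted p = 8.32e-06), so this hairpin's target was lower as labelled. Grin2d was at 2.46 ± 0.590 CPM (n = 3) in ASP shGRIN2D and at 3.60 ± 0.423 CPM (n = 4) in ASP shSCR (edgeR adjusted p = 0.516), and its fall did not pass the test at 37 to 76 counts per library of these 2 groups.

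The spheroids held transcripts of both states side by side. Levels of different genes are compared per kb of exon, with gene lengths from GENCODE M21, and differences between groups are given in CPM. On the per-length scale, over all 14 libraries, Vim stood at 286 ± 40.6 CPM per kb and Epcam at 254 ± 41.5 CPM per kb, and their ranges overlapped. These values pool the 4 groups and give no order of the 2 genes within a group. In ASP shDHPS, Epcam was lower and Vim higher than in ASP shSCR. Fn1 (99.8 ± 32.9 CPM per kb) and Cdh1 (97.9 ± 8.44 CPM per kb) followed with no gap beyond their spread. Among the transcription factors, Twist1 (20.7 ± 2.66 CPM per kb) and Snai1 (16.5 ± 1.19 CPM per kb) overlapped, and Zeb2 was far below at 0.994 ± 0.228 CPM per kb. Zeb1 and Snai2 closed the order. The length used moves this scale. With the longest transcript in place of all exons, Vim came to 464 CPM per kb and Epcam to 273 CPM per kb. The closeness of these 2 genes above is thus tied to the exon length and to the pooling of groups. Fn1 came to 140 CPM per kb and Zeb2 to 2.17 CPM per kb, and the order of the 8 detected members was the same.

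**Figure D1:**
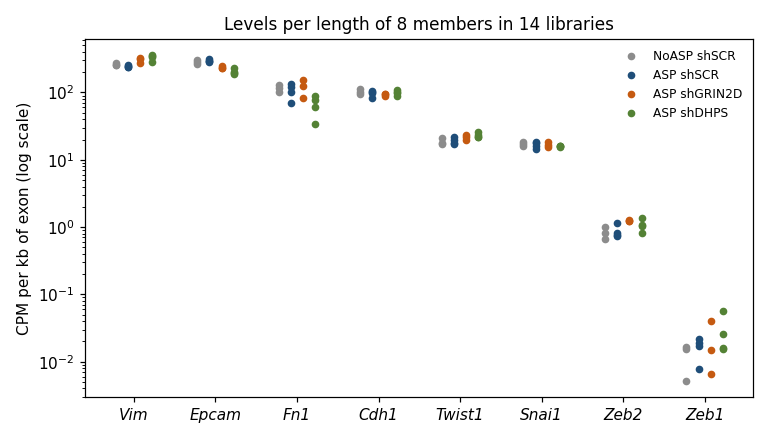
Level of 8 members in CPM per kb of exon on a log axis, with 1 point for each of the 14 libraries, coloured by group. Vim and Epcam sit highest, Cdh1 and Fn1 near 100 CPM per kb, Twist1 and Snai1 near 20 CPM per kb, Zeb2 near 1 CPM per kb and Zeb1 at or below 0.0572 CPM per kb.

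Snai2, which encodes Slug, was read 0 times in 11 of the 14 libraries, once in 1 and 2 times in 2. A count of 0 allowed up to 0.131 to 0.236 CPM in those libraries, by counting error alone, so no fold was formed. Zeb1 had 1 to 11 counts per library, at 0.0528 to 0.587 CPM, and none of its 4 comparisons passed the test. The highest Zeb1 library was replicate 4 of ASP shDHPS, and its interval in that comparison ran from -0.74 to 2.24 on the log2 scale. Changes of Zeb1 or Snai2 were therefore not detectable at this depth.

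Most markers of other cells were near 0. Of 11 such markers, 5 were in the table. Ptprc of blood cells, Csf1r of macrophages, Pecam1 and Cdh5 of endothelium had group means of at most 0.406 CPM, and Pdgfra, a growth factor receptor of fibroblasts, had group means of 26.6 to 33.1 CPM. Dcn of fibroblasts was read in NoASP shSCR alone, with at most 1 count per library. None of the 5 was called in any of the 4 comparisons by edgeR or DESeq2. At an unadjusted edgeR p below 0.05 there were 3 in ASP shDHPS against ASP shSCR, where 3769 of all 19525 genes were. Between the knockdowns there was 1, where 2898 of all genes were. The carcinoma keratins Krt8 (1334 to 1680 CPM as group means) and Krt18 (884 to 1219 CPM) were high. Of the receptors whose loss defines triple-negative disease, Esr1 lay between 3.44 and 6.12 CPM and Erbb2 between 65.1 and 90.0 CPM, and Pgr was not analysed here. In RNA from whole spheroids, fewer cells of a state and less RNA per cell cannot be told apart, and neither can a mixture of 2 kinds of cell and 1 kind that holds both sets of transcripts.

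The question of the first comparison is whether added aspartate moved these genes. None of the 9 members was called, none had an unadjusted p below 0.05, and DESeq2 called none either. The background was the same, since edgeR and DESeq2 called 0 of 19525 genes (0%), with 424 at an unadjusted p below 0.05. The replicate numbers were taken to pair these 2 groups, by correlation and not by the labels, and the main test did not use them. With the number as a block, 2 genes were called over all 14 libraries and 64 within the 7 shSCR libraries, with no member among them.

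For Cdh1, the libraries of NoASP shSCR stood at 465, 441 and 517 CPM and those of ASP shSCR at 376.5, 449, 464 and 479 CPM, and the groups overlapped. The log2 fold change was -0.10 (SE 0.098, 95% interval -0.31 to 0.10, edgeR adjusted p = 1). For Epcam, the libraries without aspartate stood at 662.5, 615 and 582 CPM and those with it at 645, 687, 612 and 650 CPM. This gave a log2 fold change of 0.07 (SE 0.088, 95% interval -0.12 to 0.25). Neither epithelial gene differed beyond the spread of its libraries.

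Vim stood at 1216, 1306 and 1228 CPM without aspartate and at 1135, 1192, 1138 and 1201 CPM with it. All ASP shSCR libraries lay below all NoASP shSCR libraries. Such separation, in either direction, was found for 2.71% of all genes, and the log2 fold change of -0.10 (SE 0.090) did not pass the test (edgeR adjusted p = 1). Fn1 ranged from 1184 to 1527 CPM without and from 811 to 1562 CPM with aspartate. Its log2 fold change of -0.13 (SE 0.24) had a 95% interval from -0.63 to 0.37, the widest among the members with at least 5 CPM. Snai1 (27.6 ± 1.76 CPM, n = 3, and 27.1 ± 2.84 CPM, n = 4), Twist1 (30.5 ± 3.27 and 31.1 ± 3.58 CPM) and Zeb2 (16.4 ± 3.40 and 17.2 ± 3.68 CPM) differed by less than the spread between libraries.

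**Figure D2:**
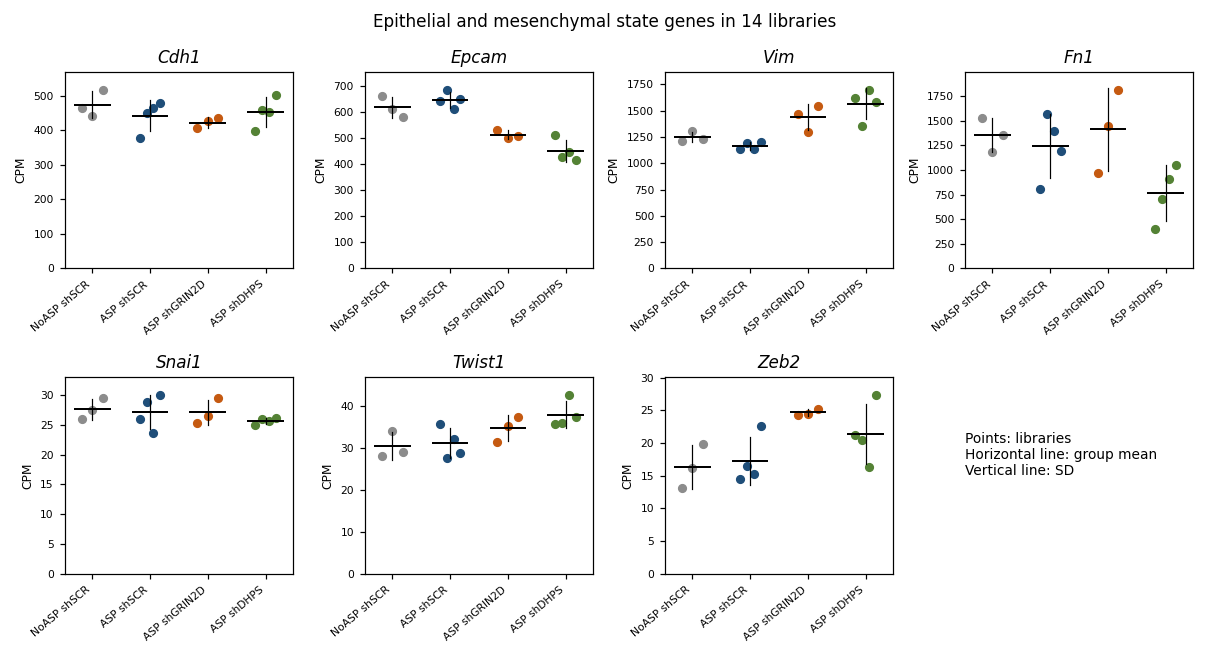
CPM of the 7 members that averaged 5 CPM or more, with 1 point per library in each of the 4 groups, a horizontal line at the group mean and a vertical line of 1 SD either way, on axes that start at 0. Epcam is lower and Vim higher in both knockdown groups than in ASP shSCR, and Fn1 is the most scattered.

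The knockdown of Dhps asks whether these genes moved when the hypusination enzyme was reduced under aspartate. Epcam fell and Vim rose, while Cdh1 did not differ detectably. These 2 of 9 members were called, against a background of 4.22% of all genes called in this comparison. The members were chosen with earlier results of these data known, so this count is a description.

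Epcam stood at 645, 687, 612 and 650 CPM in the ASP shSCR libraries and at 512, 427, 448 and 418 CPM in ASP shDHPS. The groups did not overlap, and every ASP shDHPS library was also below every NoASP shSCR library. Epcam decreased by 30.4%, a log2 fold change of -0.52 (SE 0.082, 95% interval -0.69 to -0.35, edgeR adjusted p = 0.000779). The call held in all 17 alternatives of processing and left-out libraries, with log2 fold changes from -0.59 to -0.49.

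Vim stood at 1135, 1192, 1138 and 1201 CPM in ASP shSCR and at 1626, 1359, 1700 and 1583 CPM in ASP shDHPS. The groups did not overlap. The increase was 34.3%, a log2 fold change of 0.43 (SE 0.084, 95% interval 0.25 to 0.60, edgeR adjusted p = 0.00530), and it too held in all 17 alternatives, from 0.38 to 0.49.

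Cdh1 stood at 399, 458, 453 and 503 CPM in ASP shDHPS. The groups overlapped, although the highest of these libraries lay above all ASP shSCR libraries. Its log2 fold change was 0.04 (SE 0.091, edgeR adjusted p = 0.873), and the 95% interval of -0.15 to 0.22 leaves out a fall of the size seen for Epcam. No test of the difference between Epcam and Cdh1 was made.

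Fn1 stood at 811, 1562, 1397 and 1192 CPM in ASP shSCR and at 403, 700.5, 904.5 and 1053 CPM in ASP shDHPS. The groups overlapped by the lowest ASP shSCR library. The log2 fold change was -0.70 (SE 0.22, 95% interval -1.16 to -0.23), and the edgeR adjusted p of 0.0819 missed the threshold. The mesenchymal pair thus had values in opposite directions, with Vim called higher and Fn1 uncalled and lower. Without replicate 1 of ASP shSCR the edgeR adjusted p of Fn1 was 0.0294, and without replicate 4 of ASP shDHPS it was 0.0271, whereas without any other single library of these 2 groups it was 0.109 to 0.233.

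Of the transcription factors, Twist1 ranged from 27.7 to 35.6 CPM in ASP shSCR and from 35.8 to 42.7 CPM in ASP shDHPS. The groups did not overlap, as for 11.1% of all genes, and the log2 fold change of 0.29 (SE 0.10) did not pass the test (edgeR adjusted p = 0.133). Zeb2 ranged from 14.6 to 22.6 CPM and from 16.4 to 27.3 CPM, with a log2 fold change of 0.32 (SE 0.16, edgeR adjusted p = 0.264). Snai1 was the steadiest member here, at 25.0, 25.9, 25.7 and 26.2 CPM in ASP shDHPS, and its log2 fold change of -0.08 (SE 0.098) had a 95% interval of -0.28 to 0.13.

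The knockdown of Grin2d asks the same of the receptor subunit. No member was called by edgeR, against 1.16% of all genes. At an unadjusted edgeR p below 0.05 there were 3 of the 9 members, and 2040 of all 19525 genes. DESeq2 called 2 members, Epcam and Vim, and 442 of all genes. Both knockdown groups were set against the same 4 ASP shSCR libraries, so a likeness between the 2 comparisons is in part built in.

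Epcam stood at 534, 502 and 510 CPM in ASP shGRIN2D, below all ASP shSCR libraries. The log2 fold change was -0.33 (SE 0.089, 95% interval -0.52 to -0.15, edgeR adjusted p = 0.0787), and over 16 alternatives the adjusted p ran from 0.00311 to 0.297. Vim stood at 1474, 1300 and 1544 CPM, above all ASP shSCR libraries. Its log2 fold change was 0.30 (SE 0.090, 95% interval 0.12 to 0.49, edgeR adjusted p = 0.133). Zeb2 stood at 24.3, 24.5 and 25.3 CPM in ASP shGRIN2D and at 14.6, 16.5, 15.3 and 22.6 CPM in ASP shSCR, again without overlap. Its log2 fold change of 0.53 (SE 0.17, 95% interval 0.18 to 0.87) had an edgeR adjusted p of 0.170. Such separation of the libraries was found for 12.0% of all genes in this comparison.

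Cdh1 stood at 405.5, 427 and 434.5 CPM in ASP shGRIN2D, with a log2 fold change of -0.06 (SE 0.098, 95% interval -0.27 to 0.14). Fn1 ranged from 968 to 1813 CPM there, with a log2 fold change of 0.19 (SE 0.24). Twist1 at 0.16 (SE 0.11) and Snai1 at 0.00 (SE 0.11) on the log2 scale also lay within the spread of the libraries.

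**Figure D3:**
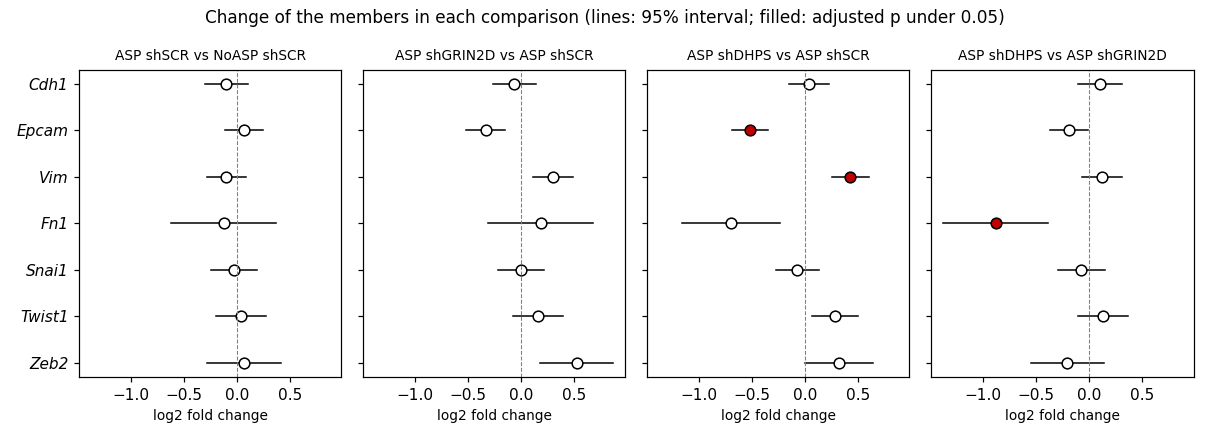
Log2 fold change of 7 members in the 4 comparisons, with points for the estimate, lines for the 95% interval and filled points for an adjusted p under 0.05. Epcam (-0.52) and Vim (0.43) are filled in ASP shDHPS against ASP shSCR and Fn1 (-0.88) in ASP shDHPS against ASP shGRIN2D.

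The 2 knockdown groups were also compared with each other, which tests whether the members differed between them. Here 1 member was called, against 2.82% of all genes. Fn1 stood at 968, 1449 and 1813 CPM in ASP shGRIN2D and at 403, 700.5, 904.5 and 1053 CPM in ASP shDHPS. The groups overlapped, since the highest ASP shDHPS library exceeded the lowest ASP shGRIN2D library, whereas 15.1% of all genes had no overlap. The log2 fold change was -0.88 (SE 0.24, 95% interval -1.38 to -0.39, edgeR adjusted p = 0.0473). The call stood just inside the threshold and was lost in 9 of 15 alternatives, DESeq2 among them (adjusted p = 0.0629). It was lost without replicate 2 or 3 of ASP shGRIN2D (adjusted p = 0.139 and 0.289 by edgeR) and without replicate 1, 2 or 3 of ASP shDHPS (adjusted p = 0.0976, 0.104 and 0.0610 by edgeR).

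Epcam was 0.19 lower on the log2 scale in ASP shDHPS than in ASP shGRIN2D, with a 95% interval of -0.37 to -0.01 and an edgeR adjusted p of 0.309. For Vim the difference was 0.12 (95% interval -0.07 to 0.31, edgeR adjusted p = 0.557) and for Zeb2 it was -0.21 (95% interval -0.55 to 0.14, edgeR adjusted p = 0.585). The response of Epcam, Vim or Zeb2 was therefore not shown to differ between the hairpins.

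Fn1 had the widest spread of the 7 members that averaged 5 CPM or more in each of the 3 groups with aspartate, and Zeb2 did in NoASP shSCR, with a coefficient of variation of 20.8%. The coefficient of variation of Fn1 was 12.7% in NoASP shSCR, 26.1% in ASP shSCR, 30.1% in ASP shGRIN2D and 36.8% in ASP shDHPS, whereas that of Epcam lay between 3.23% and 9.45%. In all 3 groups that had a library numbered 1, that library had the lowest Fn1. The same was so for Cdh1, at 376.5, 405.5 and 399 CPM, and for 332 of the 10224 genes that averaged 5 CPM or more (3.25%). Number by number, Fn1 was lower in ASP shDHPS than in ASP shSCR in 4 of 4, with log2 differences of -1.16 to -0.18. It was lower than in ASP shGRIN2D in 3 of 3, with log2 differences down to -1.26. The share of all genes with the same pattern was not counted, so these counts are a description and no support for the fall. The labels do not say what a number shares across groups. Without all 3 libraries numbered 1, the log2 fold change of Fn1 against ASP shSCR was -0.65 (edgeR adjusted p = 0.0171) and against ASP shGRIN2D it was -0.88 (edgeR adjusted p = 0.00337), a setting chosen after seeing the data.

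**Figure D4:**
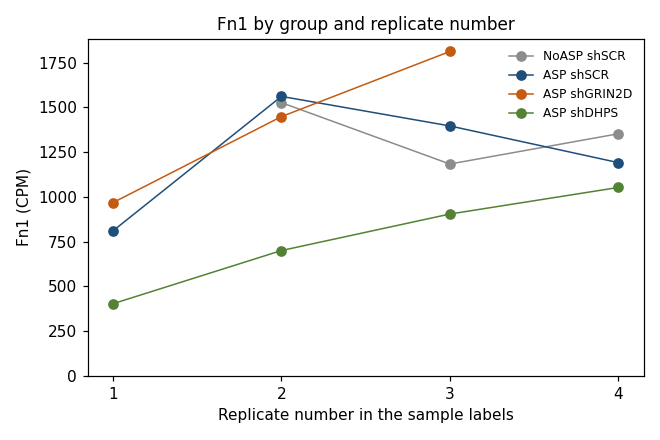
Fn1 in CPM against the replicate number in the sample labels, with 1 line per group. The library numbered 1 is the lowest of ASP shSCR (811 CPM), ASP shGRIN2D (968 CPM) and ASP shDHPS (403 CPM), and the ASP shDHPS line lies below both other aspartate groups at each number they share.

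Other genes of the same 2 states, 88 in 5 lists of which 76 were in the table, place the members in context. In the aspartate comparison 0 of 76 were called (2 at an unadjusted p below 0.05, and 0 by DESeq2). In the knockdowns, 6 were called in ASP shGRIN2D (1 higher, 5 lower) and 13 in ASP shDHPS (2 higher, 11 lower), against the backgrounds given above. These lists were chosen with earlier results of these data known. The backgrounds are not matched for level, since 59 of the 76 genes but 10224 of all 19525 averaged 5 CPM or more. All 5 genes called lower in ASP shGRIN2D and 10 of the 11 in ASP shDHPS belonged to the 3 epithelial lists, which held 43 of the 76 genes. The standard errors of the called changes named from these lists lay between 0.077 and 0.24, with edgeR adjusted p of at most 0.0461.

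In ASP shDHPS, edgeR called 3 of 5 keratins lower, the filament proteins of epithelium, where it called 4.22% of all genes. All 5 had negative log2 fold changes. Krt19 went from 159 ± 27.7 to 86.4 ± 3.61 CPM (n = 4 and 4), a log2 fold change of -0.88 (SE 0.11, edgeR adjusted p = 7.73e-05). Krt7 fell by 0.57 and Krt14 by 0.54 on the log2 scale, and the median of the 5 keratins was -0.54 against -0.00 for all genes with at least 5 CPM. Of 25 genes of junctions and the epithelial surface, edgeR called 5 lower and 1 higher. Positive log2 fold changes were found for 6 of the 24 with at least 5 CPM, and for 5033 of all 10224 such genes. Ap1m2, an adaptor of basolateral sorting, fell by 0.89, the desmosomal cadherin Dsg2 by 0.55, plakoglobin (Jup) by 0.45 and the tight junction scaffold Tjp1 by 0.42. Outside the naming rule, and named after their values were seen, the desmosomal plaque gene Pkp3 fell by 0.31 and the claudin Cldn3 rose by 0.40. Of 13 regulators of the epithelial state, the splicing factor Esrp1 fell by 0.45 and the transcription factor Grhl2 by 0.32. Leaving out libraries or changing the method lost the call of Jup in 2, of Tjp1 in 9 and of Grhl2 in 11 of 17 alternatives, and those of Krt19, Krt7, Krt14, Ap1m2, Dsg2 and Esrp1 in none.

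Of the 21 genes of the mesenchymal cytoskeleton and matrix in the table, edgeR called 0 in ASP shDHPS, where 4.22% of all genes were called. At an unadjusted edgeR p below 0.05 there were 2, where 3769 of all 19525 genes were. The median over the 12 with at least 5 CPM was 0.04. DESeq2 called 2 of the list higher and 0 lower, among them the receptor kinase Axl (edgeR log2 fold change 0.24, adjusted p = 0.0891). It called 1379 of all genes. At the edgeR share of 4.22%, 21 genes are too few for a count of 0 to set this list apart from all genes. Among 12 other factors of the transition, Hmga2 rose by 0.29 and Tcf4 fell by 0.48 (adjusted p = 0.0449 by edgeR). Of 17 alternatives, Tcf4 lost its call in 11 and Hmga2 in 8.

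In ASP shGRIN2D, the keratins Krt7 and Krt18 fell by 0.64 and 0.46 on the log2 scale. The claudin Cldn7 fell by 0.52, Rab25, a GTPase of epithelial recycling, by 0.51 and Esrp1 by 0.54, and Hmga2 rose by 0.45. Of these, the calls of Krt7 and Esrp1 held in all 16 alternatives. Of the 21 mesenchymal genes edgeR and DESeq2 called 0. At an unadjusted edgeR p below 0.05 there were 3, where 2040 of all 19525 genes were. With 1.16% of all genes called by edgeR, the count of 0 does not set the list apart either. Of the receptors, Esr1 fell by 0.83, a call lost in 8 of 16 alternatives. Between the knockdowns, 7 of the 76 genes of the 5 lists were called, where 2.82% of all genes were. The claudins Cldn3, Cldn4 and Cldn7 were higher in ASP shDHPS by 0.68, 0.45 and 0.46, Krt14, Krt19 and Ap1m2 were lower by 0.58, 0.43 and 0.65 on the same scale, and the matrix protein gene Tnc was higher by 1.05. The calls of Cldn3, Cldn4 and Krt14 held in all 15 alternatives, and the other 4 did not.

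**Figure D5:**
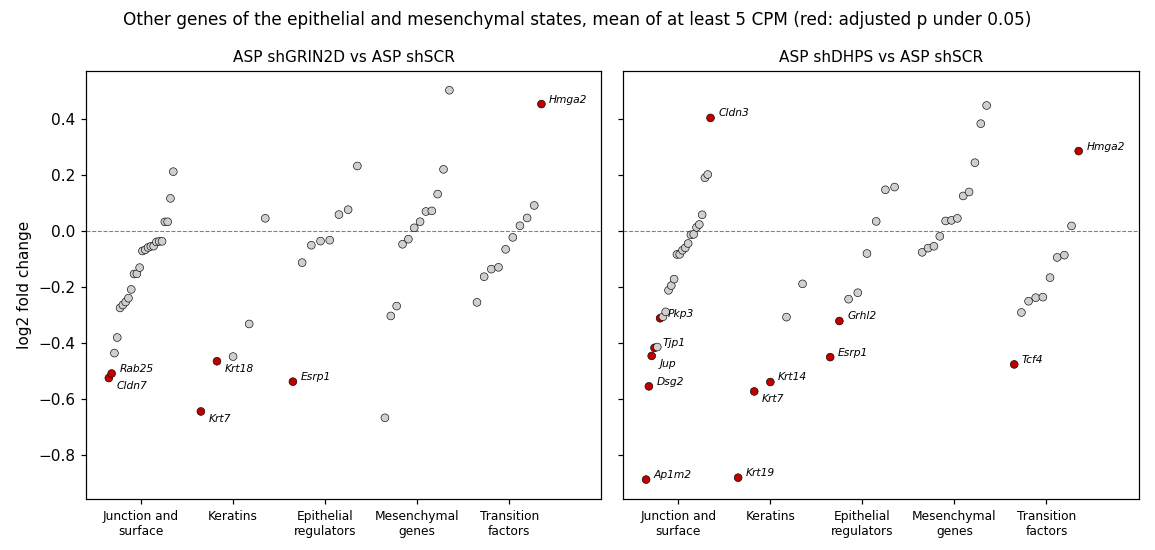
Log2 fold changes of the genes of the 5 lists that averaged 5 CPM or more in the 2 knockdowns against ASP shSCR, with 1 point per gene, ordered by value within a list, and red points for an adjusted p under 0.05. The red points are mostly keratins, junction genes and Esrp1 below 0, and no mesenchymal gene is red.

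The Hallmark set of epithelial-mesenchymal transition, which was deposited among the study's gene sets, listed 207 genes, of which 159 were in the table. Of the members with a row in the table, Vim, Fn1 and Snai2 belong to it. Called genes ran in both directions, with 5 higher and 5 lower in ASP shGRIN2D, 8 higher and 11 lower in ASP shDHPS, and 5 higher and 14 lower in ASP shDHPS against ASP shGRIN2D. These were 6.29%, 11.9% and 11.9% of its genes in the table, where 1.16%, 4.22% and 2.82% of all genes were called. Its median log2 fold change over the genes with at least 5 CPM was 0.01, -0.09 and -0.07 in turn, and none was called for aspartate (5 at an unadjusted p below 0.05). Vim was among the 8 higher in ASP shDHPS, and Fn1 among the 14 lower between the knockdowns.

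The genes most alike to each member were found by Pearson's r of log2 CPM over the 14 libraries, among 9805 genes with at least 5 CPM. These values are descriptive, since the libraries share groups and scaling. Epcam was closest to Hmgb2 and Morc4 (r = 0.95 for both), Vim to Atp6v1b2 (0.91) and Ctsb (0.90), and Fn1 to Vcl (0.95) and Mia3 (0.93). Cdh1 followed Crim1 (0.88) and Polr2a (0.87), Twist1 followed Arpc5l (0.92) and Tmem208 (0.91), and Zeb2 followed mt-Nd5 (0.90) and H2ax (0.86). Snai1, the steadiest of the factors, had the weakest likeness, with Pced1b at 0.78 and Pan3 at 0.75. No member was among the 2 genes most alike to another.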

How the data were processed

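RNA from 14 spheroid libraries was prepared with a stranded poly(A) protocol. The authors' counts came from reads cleaned with Trim Galore, aligned to GRCm39 with STAR and assigned to genes with Salmon. The estimates were rounded, and a gene had to be expressed in 2 or more replicates of some condition to be kept. The deposited counts covered 19525 genes. Salmon divides reads of overlapping genes and near-identical copies by estimation. The authors' tables of fold changes and enrichment scores for aspartate were not used, nor compared with.

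Groups and numbers came from the sample descriptions. The study's methods describe the pellets of a condition as independent. Counts were tested with edgeR 4.0.16 in R 4.3.3 (TMM, quasi-likelihood, group as the only term, no filter, adjusted p below 0.05), after tests on simulated data. CPM used TMM-scaled library sizes. No fold was given where no library exceeded 3 counts. Replicate libraries differed by more than sampling noise (chi-square per degree of freedom 6.23 to 32.4). The members and lists were chosen with earlier results of these data known. All members were named, and from each list at most 4 called genes with at least 5 CPM by size of change. The values of 1 gene of the mesenchymal list are not reported here.

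The replicate numbers were taken to pair the 2 shSCR groups from the data, since the labels do not say what a number shares. Deviations of same-numbered libraries correlated at 0.203 to 0.514 over genes with at least 5 CPM. For ASP shDHPS and ASP shSCR they correlated at 0.0404 to 0.258. In the other comparisons some pairs stayed below 0.1 (lowest -0.117), so the numbers were not taken as pairs there. The values of Fn1 by number in those comparisons are a description, and the replicate block is an alternative only. The alternatives were DESeq2 1.42.0, RLE factors, library size alone, filterByExpr (13421 genes), a robust prior, a replicate block, the 2 groups alone, and each library left out. Gene lengths came from GENCODE M21 exons, and promoters from RefSeq. The limit given for a count of 0 covers counting error only. The intervals of fold changes come from the edgeR standard errors, which include the spread between libraries.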

Additional observations from a re-analysis of the deposited data

How the results depend on the processing

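All values here refer to edgeR calls at adjusted p below 0.05 unless DESeq2 is named. The calls of Epcam and Vim in ASP shDHPS against ASP shSCR held in all 17 alternatives, and no scaling tried moved the median of genes with at least 5 CPM by more than 0.0226 on the log2 scale. With few libraries per group, the calls of single genes near the threshold depended on the libraries kept, and members with low counts had little power.

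Members called in ASP shGRIN2D against ASP shSCR went from 0 to 1 with library size alone or only the 2 groups, to 2 with DESeq2 and to 3 with the replicate block. In ASP shDHPS against ASP shSCR they went from 2 to 4 with the block, which added Fn1 (adjusted p = 3.53e-06) and Twist1 (adjusted p = 0.0484) to Epcam and Vim and, of the markers of other cells, called Pecam1 lower, and were 2 to 3 with 1 library left out. Between the knockdowns the 1 call fell to 0 with library size alone, DESeq2, filterByExpr or a robust prior, and was 0 to 1 with 1 library left out.

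Genes called in the 5 lists went from 6 to 11 with the block and 10 with only the 2 groups in ASP shGRIN2D (2 to 7 with 1 library left out), from 13 to 20 with the block in ASP shDHPS (6 to 14), and from 7 to 16 with the block between the knockdowns (3 to 7). Leaving out both shSCR libraries numbered 2, or all libraries numbered 1, gave 8 in ASP shDHPS, and the latter gave 4 between the knockdowns. Both settings were chosen after seeing the data.

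All genes called for aspartate went from 0 to 2 with the block over all libraries, to 64 with the block within the 7 shSCR libraries, and were 0 to 1 with 1 library left out. In ASP shGRIN2D, 226 became 442 with DESeq2, 611 with the block, 374 with only the 2 groups, 127 without the libraries numbered 1, and 86 to 208 with 1 library left out. In ASP shDHPS, 824 became 1379 with DESeq2, 2150 with the block, 448 without the libraries numbered 1, and 412 to 894 with 1 library left out. Between the knockdowns, 550 became 933, 1468, 163 and 209 to 577 in turn. Of the libraries with a shared number, 1 of 6 in the first knockdown comparison, 5 of 8 in the second and 2 of 6 in the third correlated best with their own number, which is a hint from the data and not the design. The cause of these changes was not tested.

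Signs turned only where the change was uncalled, on the log2 scale. For aspartate, Fn1 became 0.0622 with the block over all libraries, 0.0323 with the block within the shSCR libraries, and -0.258 to 0.0304 with 1 library left out. Snai1 was -0.0793 to 0.0312, Twist1 -0.0401 to 0.124 and Zeb2 -0.0829 to 0.229 with 1 library left out. Twist1 became -0.0372 with the block within shSCR, and Zeb2 became -0.0593 without the libraries numbered 2. In ASP shGRIN2D, Fn1 was -0.0372 to 0.395, Snai1 -0.0655 to 0.0485 and Zeb1 -0.569 to 0.680 with 1 library left out. Snai1 there became 0.000104 with filterByExpr, 0.0313 with the block, 0.0295 without the libraries numbered 2 and 0.030 without those numbered 1. Cdh1 in ASP shDHPS was -0.0328 to 0.0933, and Zeb1 between the knockdowns was -0.130 to 1.32, with 1 library left out. Per length of the longest transcript, Epcam came to 273, Vim to 464, Fn1 to 140, Zeb1 to 0.0352 and Zeb2 to 2.17 CPM per kb.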
